A study of Mus musculus with 16 samples.

Results

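The lysosomal mRNAs described here are 44 genes, of the 21878 mRNAs in the deposited tables, found by their gene symbols. They comprise prosaposin (Psap), hydrolases for lipids, glycans and glycogen, the cathepsins and related proteases, proteins of the lysosomal membrane, the transcription factor Tfeb and progranulin (Grn). The list was drawn up with earlier EAE against PBS values of these same libraries in view, so those values describe the members and do not test them. A split came with the list: Cd68, Ctss, Ctsc and Laptm5 were taken as enriched in myeloid cells and the other 40 as widely expressed. All 44 members had enough counts to be tested.

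RNA was sequenced from CD11b+/CD45int cells sorted from the brains of 16 female C57BL/6 wild-type mice, with 1 library per mouse. The age of the mice is given as 8 weeks. The 8 EAE mice were immunized with MOG35-55, a peptide of myelin oligodendrocyte glycoprotein, in complete Freund's adjuvant and also received pertussis toxin, which induces experimental autoimmune encephalomyelitis, a model of multiple sclerosis. The 8 control mice received injections of PBS, and brains were taken at the peak of disease, 14 days after induction. The adjuvant and the toxin differ between the groups together with the peptide. In the treatment label the last residue of the peptide runs from 55 to 62 over the 8 mice, while the protocol gives 55 for all of them. Libraries held 24587443 to 30244215 counts in EAE and 26031889 to 34184576 in PBS libraries, and they are named by group and replicate number.

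The labelled cell type was checked against marker mRNAs. Levels are given in FPKM, read pairs of an mRNA scaled for its length and for the depth of the library. Summed over 17 microglial markers, the level was 218 to 354 FPKM in EAE and 197 to 326 in PBS libraries. Lists of other brain cells reached higher sums from fewer genes, with 1052 to 1236 and 1204 to 1327 FPKM for 10 neuronal markers, 1161 to 1750 and 1348 to 1590 for 8 astrocyte markers, and 906 to 1272 and 995 to 1222 for 7 oligodendrocyte markers. The libraries thus held abundant neuronal and glial marker RNA. A member's level is that of the whole library, in which fewer cells of a type and less RNA per cell cannot be told apart. The 6 libraries EAE 6, EAE 7, EAE 8, PBS 5, PBS 7 and PBS 8 were set apart as alike from earlier results of these data. No measure of their likeness is given here, and the labels name no batch. The words most alike and similar below therefore only name this set. Values within these 6 and within the remaining 10 are given where they change a result. Microglial markers summed to 218 to 237 FPKM in EAE 6, EAE 7 and EAE 8 and to 306 to 354 in the other EAE libraries.

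Lysosomes are acidic organelles that break down material delivered by endocytosis, phagocytosis and autophagy. A proton pump, the V-ATPase, acidifies the lumen, most hydrolases arrive there with a mannose 6-phosphate tag, and saposins, small proteins cut from the Psap precursor, present sphingolipids to their hydrolases. The factors TFEB and TFE3 switch on many lysosomal genes through a sequence called the CLEAR element, which contains an E-box, and the myeloid factor PU.1 binds purine-rich sequences near genes of macrophages and microglia. In microglia, lysosomes degrade engulfed myelin and cell debris, and Cd68 is often used as a marker of phagocytic cells.

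Promoter windows were read from RefSeq on GRCm38.p6, covering 250 bases before and 50 after each start site. Of the 44 members, 40 had a window, and Asah1, Ctsb, Ctsh and Npc1 did not. The windows were searched on both strands for the E-box CACGTG, for the longer CLEAR-type motif GTCACGTG, which contains that E-box, and for the PU.1-type motif GAGGAAGT. The CLEAR-type motif was found for 9 of the 40 members (22.5%) and for 2.55% of all 27025 genes with a window, the E-box for 12 (30%) and 8.09%, and the PU.1-type motif for 3 (7.5%) and 3.69%. Over all 32851 windows of this length, 2.25%, 7.15% and 3.20% held them, respectively. The motifs were picked with the members known, and a match describes letters in a window without showing that a factor binds there. The match nearest to the start site of each member with a CLEAR-type motif is printed because these are the members that share it, with the motif in capitals; a motif that lies on the other strand reads CACGTGAC.
Arsa, chr15:89477424-89477453, minus strand: ttcaactcagtGTCACGTGttgtctgctcc
Ctsa, chr2:164833767-164833796, plus strand: atgcagatgctCACGTGACcagagctacac
Ctsd, chr7:142387907-142387936, minus strand: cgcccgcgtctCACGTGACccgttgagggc
Glb1, chr9:114401017-114401046, plus strand: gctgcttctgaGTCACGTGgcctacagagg
Lamp1, chr8:13159122-13159151, plus strand: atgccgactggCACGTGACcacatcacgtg
Lgmn, chr12:102439125-102439154, minus strand: atggaatgtctGTCACGTGgtccattttat
Mcoln1, chr8:3500463-3500492, plus strand: ggcgccccgctCACGTGACcgcggcgcatg
Naglu, chr11:101070008-101070037, plus strand: ccaaccttcagGTCACGTGgcccgaggtcg
Sgsh, chr11:119355521-119355550, minus strand: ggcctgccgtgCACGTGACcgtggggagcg

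The PU.1-type motif was found at Ctsc and Ctss, both among the myeloid-enriched members, and at Gusb, the beta-glucuronidase, so these windows are printed as well. All 3 matches lie on the strand opposite to the gene and read ACTTCCTC.
Ctsc, chr7:88277923-88277952, plus strand: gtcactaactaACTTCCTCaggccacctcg
Ctss, chr3:95526773-95526802, plus strand: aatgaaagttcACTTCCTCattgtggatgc
Gusb, chr5:130003000-130003023, minus strand: gacttcaagcgACTTCCTCtttct

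**Figure D1:**
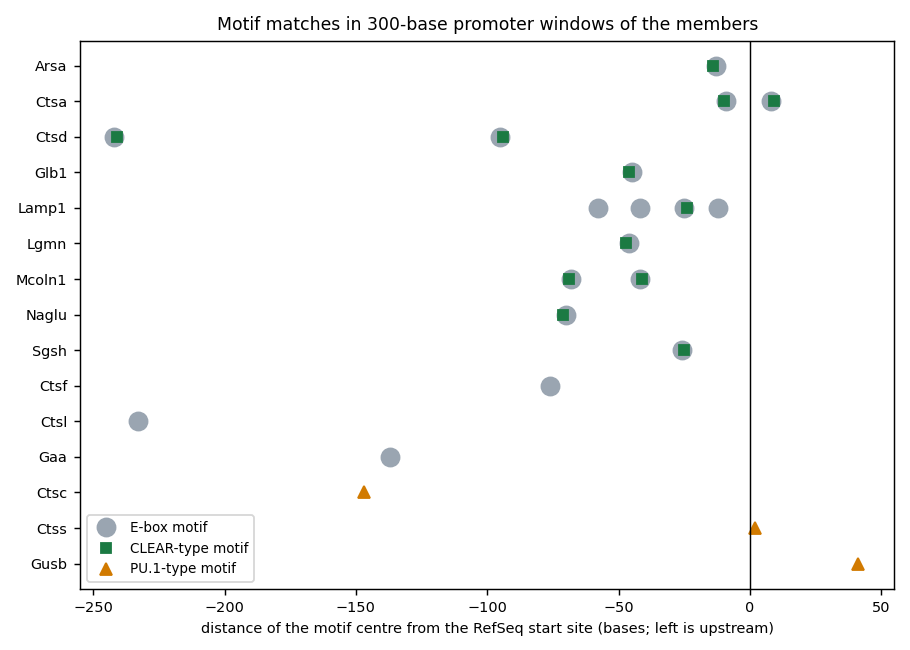
Motif matches in the promoter windows of the 15 members that hold any; the x axis gives the distance of the motif centre from the RefSeq start site in bases, with upstream to the left, and each row is a member. Grey circles are E-boxes, green squares CLEAR-type motifs and orange triangles PU.1-type motifs; Lamp1 holds 4 E-boxes centred between −58 and −12, and 1 of them is part of a CLEAR-type motif.

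Most CLEAR-type matches lay close to the start site. Ctsa, Ctsd and Mcoln1 each held a pair of matches, and the farthest match upstream was the other one in Ctsd, which begins 245 bases before the start. Neither listed Psap window held any of the 3 motifs, nor did those of Cd68 or Laptm5. Ctsf, Ctsl and Gaa held an E-box without the CLEAR-type extension.

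In the comparison of EAE with PBS-treated mice, no member was higher and 7 were lower at an adjusted p under 0.05 in edgeR's quasi-likelihood test, adjusted by Benjamini-Hochberg over all 17885 mRNAs tested. The 7 were Psap, Lamp1, Gaa, Gm2a, Npc1, Ctsb and Scarb2, all among the widely expressed members. No member was called a DEmRNA, a call that also asks for a |log2FC| over 1. Over all mRNAs tested, 1.76% were lower and 0.660% were higher at this adjusted p, and 0.117% were DEmRNAs. Lower calls were more frequent among abundant mRNAs, at 5.78% of the 3964 mRNAs with a mean log2 CPM of at least 6 (0.378% were higher), and 23 members, all 7 called ones included, were that abundant. Nothing is read from the members' share, since the contrast was in view when they were listed. Leaving out 1 library at a time gave 2 to 10 lower members, with the fewest without EAE 2 or PBS 2 and the most without EAE 4. The lower calls over all mRNAs tested moved as well, from 315 to 106 without EAE 2, 104 without PBS 2 and 815 without EAE 4. Without the adjustment, 14 members were lower and 4 were higher at a p under 0.05, where 9.52% of all mRNAs tested were lower and 7.92% were higher. DESeq2 called 2 members higher, Ctsc and Cd68, where 1.84% of all mRNAs it tested were higher.

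The fitted log2FC, the EAE over PBS difference on the log2 scale, was below 0 for 29 members and above 0 for 15. Over all 17885 mRNAs tested it was below 0 for 8468 and above 0 for 9417. Its median was −0.087 over the 40 widely expressed members and 0.28 over the 4 myeloid-enriched ones, against 0.0092 over all mRNAs tested. The 4 myeloid-enriched members all had a fitted value above 0, and none of them passed the test. All 44 together took 0.523% to 0.611% of a library's counts in EAE and 0.579% to 0.627% in PBS libraries, so the ranges overlapped. The share of the 4 myeloid-enriched members was 0.0139% to 0.0201% and 0.0127% to 0.0157%, respectively.

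**Figure D2:**
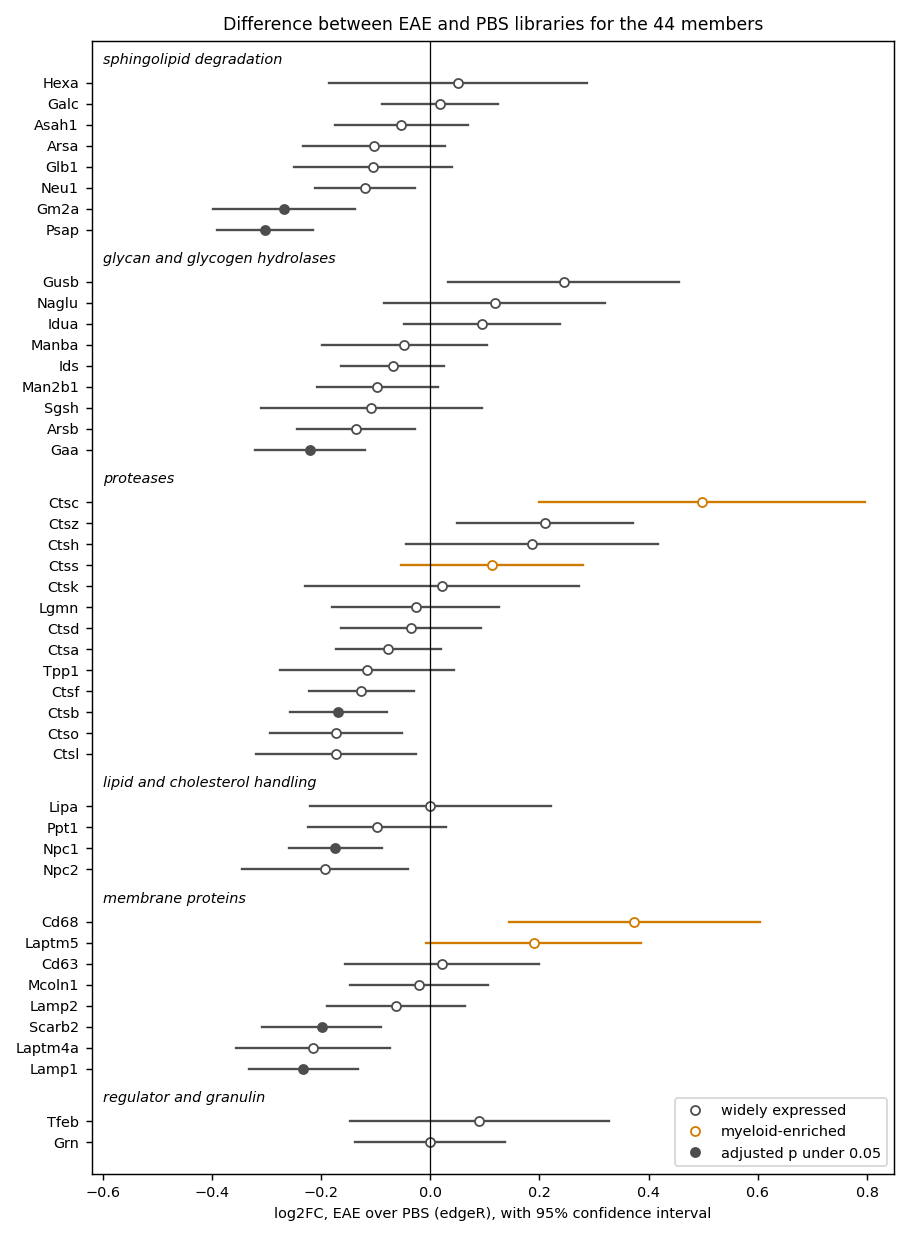
Fitted log2FC (x axis, EAE over PBS, log2 scale) of each member (y axis, grouped by role) with its 95% confidence interval from edgeR; orange marks the 4 myeloid-enriched members and filled points an adjusted p under 0.05. The 7 filled points lie between −0.30 and −0.17, and the 4 orange points lie to the right of 0, from 0.11 for Ctss to 0.50 for Ctsc.

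Among the genes of sphingolipid degradation, Psap was the most abundant of all 44 members. The Psap gene lies at chr10:60277628-60302600 on GRCm38.p6. Psap ranged from 460 to 549 FPKM in EAE, with a median of 484, and from 554 to 619 FPKM in PBS libraries, with a median of 578. Every EAE library was below every PBS library, which held for no other member in either direction; over all mRNAs tested, EAE lay wholly below PBS for 0.101% and wholly above for 0.162%. The log2FC of Psap was −0.30 (SE 0.042, adjusted p = 0.00165 from edgeR), which is 18.9% lower in EAE mice. That value rests on edgeR's TMM scaling, which the FPKM do not carry, and with library totals in its place the log2FC was −0.25. EAE 4, with 549 FPKM, came nearest to the PBS libraries, while the other 7 EAE libraries did not exceed 497 FPKM.

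Psap was also lower relative to the other members. It made up 23.1% to 24.5% of the counts of the 44 members in EAE and 25.2% to 27.0% in PBS libraries, and these ranges did not overlap. As a share of all counts it was 0.126% to 0.150% and 0.151% to 0.169%. Leaving out any single library kept it under an adjusted p of 0.05 in edgeR, with 0.00631 as the highest of the 16 values, without EAE 2. Within the 6 libraries most alike, the log2FC was −0.36 (adjusted p = 4.23e-10 from edgeR). These 6 were picked from the same data for their likeness, so the spread behind that p-value may be small by choice. There, 13.1% of all mRNAs tested were lower at an adjusted p under 0.05. Within the remaining 5 libraries per group the log2FC of Psap was −0.27 and no longer passed (adjusted p = 0.118 from edgeR).

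Gm2a, the activator protein that presents GM2 ganglioside to beta-hexosaminidase, was the other gene of this role with a call. It ranged from 12.1 to 16.6 FPKM in EAE (median 13.5) and from 15.5 to 18.1 in PBS libraries (median 16.2). EAE 5, with 16.6 FPKM, was the single EAE library above the PBS median. The log2FC of Gm2a was −0.27 (SE 0.062, adjusted p = 0.0277 from edgeR), and 10 of the 16 fits with 1 library left out kept it under 0.05. Hexa, the alpha subunit of beta-hexosaminidase, had a median of 23.7 FPKM in EAE and 21.8 in PBS libraries with overlapping ranges. The log2FC of the sulfatase Arsa, the galactosylceramidase Galc, the beta-galactosidase Glb1, the sialidase Neu1 and the ceramidase Asah1 lay between −0.12 and 0.018, and none passed the test.

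Of the 9 glycan and glycogen hydrolases, Gaa, the acid alpha-glucosidase that degrades lysosomal glycogen (chr11:119267963-119285458), was called. It ranged from 127 to 145 FPKM in EAE (median 133) and from 132 to 162 in PBS libraries (median 151). All 8 EAE libraries were below the PBS median, and 6 of the 8 PBS libraries were above the highest EAE library. The log2FC of Gaa was −0.22 (SE 0.048, adjusted p = 0.0205 from edgeR), and it passed in 14 of the 16 fits with 1 library left out. Gusb, which removes glucuronic acid from glycosaminoglycans, had the largest fitted value of this role in either direction. Its level was 6.44 to 11.0 FPKM in EAE (median 8.42) and 5.63 to 7.82 in PBS libraries (median 6.67), with a log2FC of 0.24 that did not pass (SE 0.10, adjusted p = 0.213 from edgeR). The other enzymes of heparan and dermatan sulfate breakdown (Arsb, Naglu, Sgsh, Ids and Idua) and the mannosidases Man2b1 and Manba had values between −0.14 and 0.12, and none passed.

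The 13 proteases split in both directions. Ctsb, a cysteine cathepsin (chr14:63122462-63145923), ranged from 85.9 to 99.3 FPKM in EAE (median 91.9) and from 92.9 to 108 in PBS libraries (median 99.1). Its groups overlapped, with 7 of 8 EAE libraries below the PBS median. The log2FC of Ctsb was −0.17 (SE 0.043, adjusted p = 0.0397 from edgeR), and 6 of the 16 fits with 1 library left out kept the call. Ctsb overlaps Fdft1 on the other strand, and since it is not stated whether counting used the strand, reads of the 2 genes cannot be told apart where they overlap.

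Ctsc, dipeptidyl peptidase 1, which activates granule serine proteases (chr7:88278024-88315861), had the largest fitted value of all members and the lowest median level in PBS libraries. It ranged from 1.08 to 2.76 FPKM in EAE (median 1.78) and from 0.985 to 1.56 in PBS libraries (median 1.16). EAE 4 was the highest library and EAE 5 the only EAE library below the PBS median. The log2FC of Ctsc was 0.50 (SE 0.14, adjusted p = 0.0677 from edgeR), so it missed the threshold, and it passed with DESeq2 (adjusted p = 0.0179). Without EAE 5 it passed in edgeR as well (adjusted p = 0.0138).

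Ctss, a cathepsin that cuts the invariant chain of MHC class II (chr3:95526786-95556405), ranged from 46.6 to 75.6 FPKM in EAE (median 61.5) and from 46.8 to 60.9 in PBS libraries (median 53.4). EAE 1 to 5 held 58.7 to 75.6 FPKM, while EAE 6, 7 and 8 held 46.6 to 54.4 FPKM, within the PBS range or just below it. The log2FC of Ctss was 0.11 (SE 0.081, adjusted p = 0.502 from edgeR), and it was −0.13 within the 6 libraries most alike and 0.24 within the remaining 10. Ctsz, a carboxypeptidase counted here as widely expressed, was above the PBS median in all 8 EAE libraries, at 23.3 to 35.7 FPKM against 20.8 to 26.6, with a log2FC of 0.21 (adjusted p = 0.157 from edgeR). Ctsd, the aspartic protease and the second most abundant member, had overlapping levels of 157 to 213 FPKM and 166 to 209. The other proteases, namely Ctsa, Ctsf, Ctsh, Ctsk, Ctsl, Ctso, the asparaginyl endopeptidase Lgmn and the tripeptidyl peptidase Tpp1, had a log2FC between −0.17 and 0.19, and none passed.

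Of the 4 genes of lipid and cholesterol handling, Npc1, the membrane protein that exports cholesterol from lysosomes, was called. It ranged from 21.4 to 24.9 FPKM in EAE (median 23.2) and from 23.9 to 26.8 in PBS libraries (median 25.4), with all 8 EAE libraries below the PBS median. The log2FC of Npc1 was −0.17 (SE 0.041, adjusted p = 0.0282 from edgeR), and 9 of the 16 fits with 1 library left out kept it under 0.05. Npc1 overlaps Rmc1 on the other strand, with the same limit as for Ctsb. Npc2, its soluble partner, had the largest value of this role, at 11.2 to 15.9 FPKM in EAE (median 12.6) and 13.1 to 15.8 in PBS libraries (median 13.99), and it did not pass (log2FC −0.19, SE 0.073, adjusted p = 0.167 from edgeR). The lysosomal acid lipase Lipa and the thioesterase Ppt1 had values of 0.00029 and −0.098.

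Among the 8 membrane proteins, Lamp1, a glycoprotein that coats the inside of the lysosomal membrane (chr8:13159161-13175338), ranged from 111 to 140 FPKM in EAE (median 118) and from 126 to 144 in PBS libraries (median 137). EAE 4 was again the highest EAE library, and the other 7 were at or below 124 FPKM, under the PBS minimum. The log2FC of Lamp1 was −0.23 (SE 0.048, adjusted p = 0.0157 from edgeR), and it passed in all 16 fits with 1 library left out. Scarb2, the receptor that carries glucocerebrosidase to lysosomes (chr5:92441311-92505657), ranged from 36.3 to 45.7 FPKM in EAE (median 37.8) and from 39.4 to 46.9 in PBS libraries (median 43.3). The log2FC of Scarb2 was −0.20 (SE 0.052, adjusted p = 0.0462 from edgeR), and 5 of the 16 fits kept the call.

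Cd68, a heavily glycosylated protein of macrophage lysosomes (chr11:69664213-69666170), ranged from 11.9 to 15.9 FPKM in EAE (median 13.3) and from 7.80 to 14.4 in PBS libraries (median 9.98). All 8 EAE libraries were above the PBS median, and 7 of the 8 PBS libraries were below the lowest EAE library. PBS 8, with 14.4 FPKM, was the exception. The log2FC of Cd68 was 0.37 (SE 0.11, adjusted p = 0.0734 from edgeR), so it missed the threshold. It passed with DESeq2 (adjusted p = 0.0276), with a term for the 6 similar libraries (0.0254) and without PBS 8 (0.0195). Of the 16 fits with 1 library left out, 3 passed, and the highest adjusted p from edgeR was 0.156, without EAE 8. Cd68 did not pass within the 6 libraries most alike (log2FC 0.16, adjusted p = 0.342 from edgeR) or within the remaining 10 (0.53, 0.109).

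Laptm5, a membrane protein of blood cell lysosomes (chr4:130912890-130936148), ranged from 13.8 to 25.5 FPKM in EAE (median 19.2) and from 13.8 to 18.6 in PBS libraries (median 15.97). As for Ctss, EAE 1 to 5 were the higher EAE libraries, at 19.1 to 25.5 FPKM, and EAE 6, 7 and 8 held 13.8 to 15.8. The log2FC of Laptm5 was 0.19 (SE 0.095, adjusted p = 0.307 from edgeR), −0.10 within the 6 libraries most alike and 0.34 within the remaining 10. Laptm4a, its widely expressed relative, had a log2FC of −0.22 (adjusted p = 0.0972 from edgeR). Lamp2, the tetraspanin Cd63 and the calcium channel Mcoln1 had values between −0.063 and 0.022.

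The remaining members were Tfeb and Grn. Tfeb, the master regulator named above, was low, with 2.26 to 3.70 FPKM in EAE (median 3.36) and 2.39 to 3.84 in PBS libraries (median 2.70). The log2FC of Tfeb was 0.090 (SE 0.11, adjusted p = 0.741 from edgeR). Grn, the precursor of lysosomal granulins, had a log2FC of −0.0013. The 9 members with the CLEAR-type motif had a median log2FC of −0.077, and the 31 members whose windows lacked it had −0.063.

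**Figure D3:**
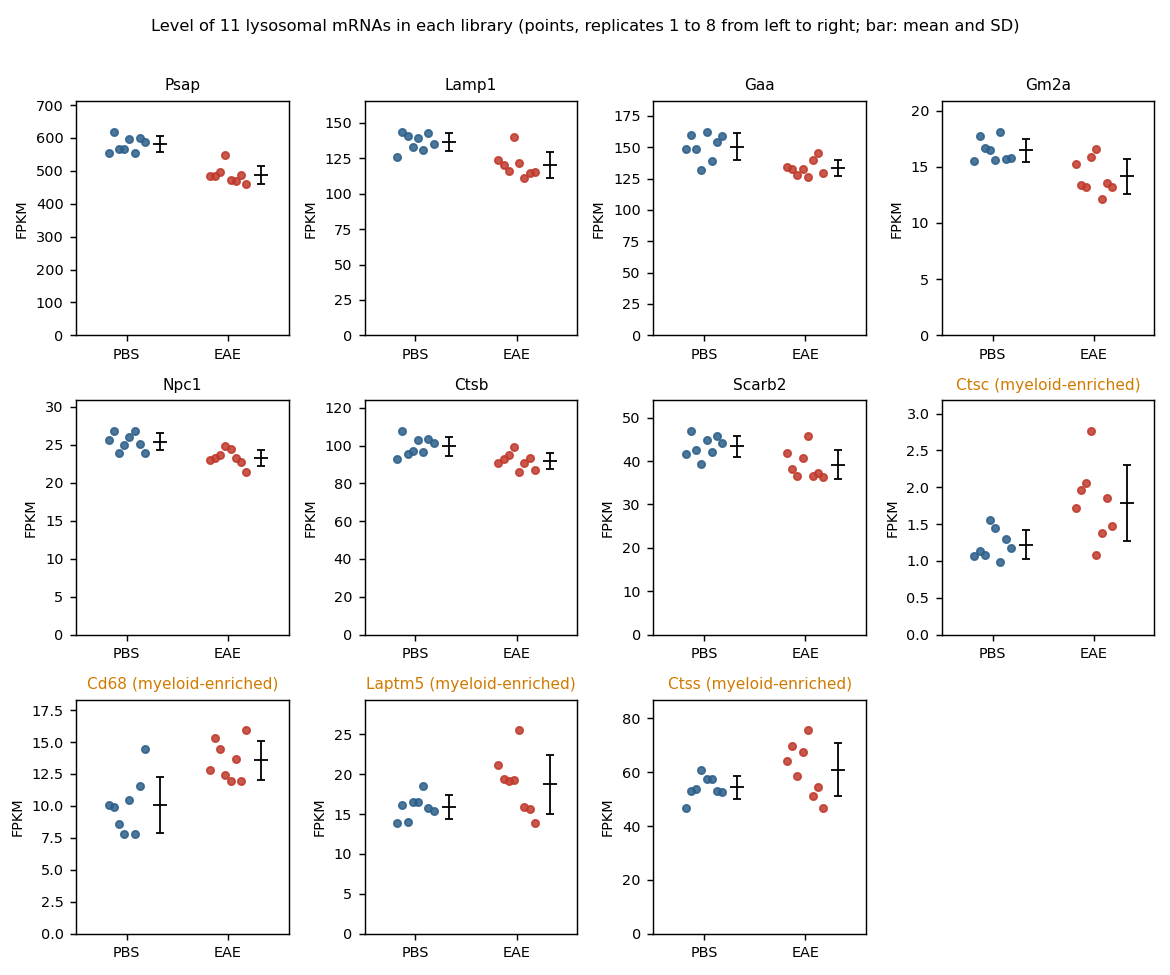
FPKM (y axis, linear from 0) of the 7 members lower in EAE and the 4 myeloid-enriched members (orange titles) in each library, PBS in blue and EAE in red, with points in order of replicate number and the mean and SD beside them (n = 8 per group). The groups do not overlap for Psap, and EAE 6, 7 and 8 lie lowest among the EAE libraries for Ctss and Laptm5.

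**Figure D4:**
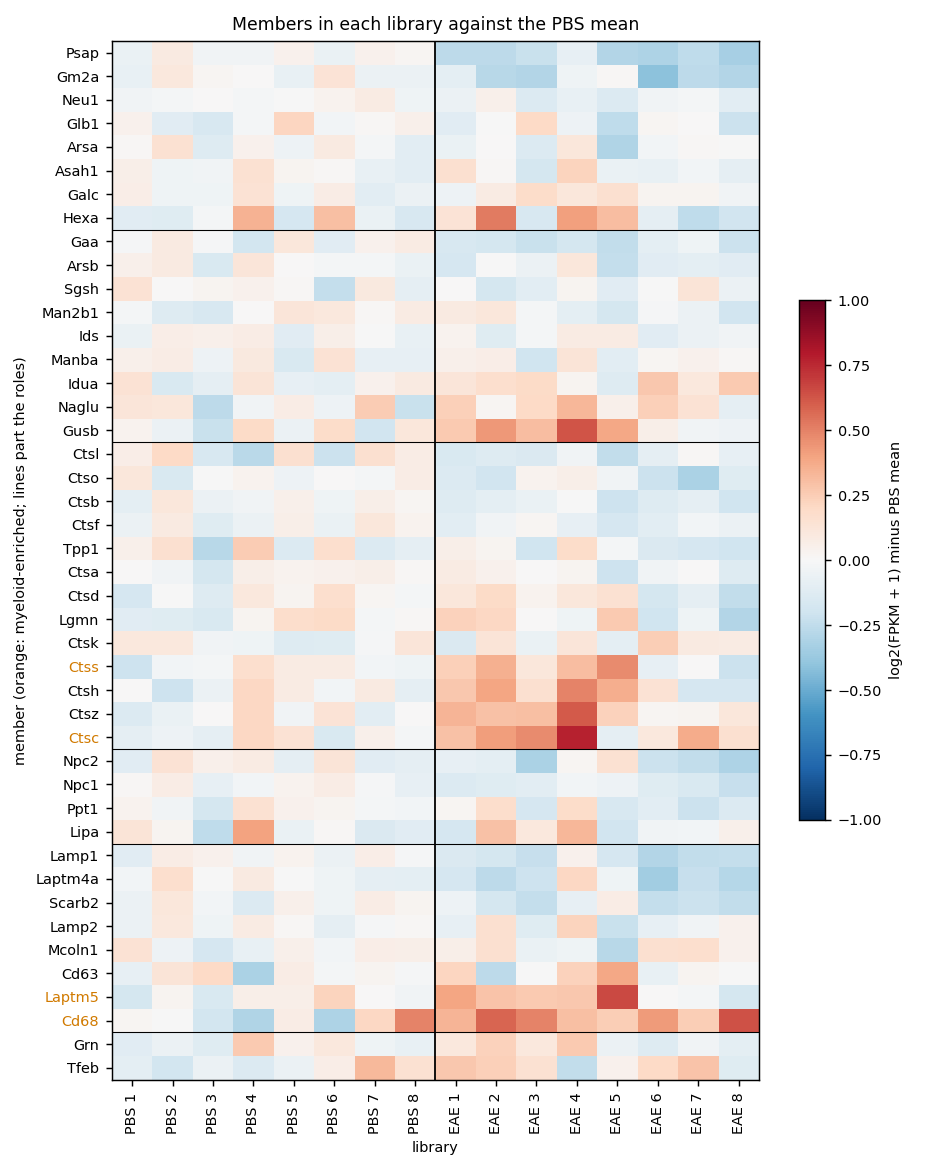
Each library (columns) against the PBS mean for each member (rows, parted by role), as a difference of log2(FPKM + 1); blue is lower and red is higher than the PBS mean. Psap is blue in all 8 EAE columns, Cd68 is red in all 8, and the row of Ctsc reaches its highest value in EAE 4.

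The split of the libraries bore on how many members were called. Within the 6 libraries most alike, 18 members were lower and 1 was higher at an adjusted p under 0.05 from edgeR, where 13.1% of all 17239 mRNAs tested were lower and 11.0% were higher. Within the remaining 5 libraries per group edgeR called no member, where 0.0286% of all mRNAs tested were lower and 0.0458% were higher. At an unadjusted p under 0.05, 7 members were lower and 7 were higher in these libraries, beside 6.71% and 4.12% of all mRNAs tested. The median log2FC of the widely expressed members was −0.11 and −0.081 in these sets of libraries. That of the myeloid-enriched members was 0.026 and 0.43. The difference between these sets was not tested, since they were recognised from the libraries themselves.

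Markers of several cell types moved with the groups. Over all mRNAs tested, 0.660% were called higher and 1.76% lower. Of the 17 microglial markers, 15 had a fitted value above 0 with a median log2FC of 0.17, and 2 were called higher, Itgam (0.46) and Trem2 (0.56). The others were not called. Among them were Tmem119 (0.13, adjusted p = 0.816 from edgeR) and P2ry12 (0.26, 0.395), which the study names as telling resident microglia from macrophages. The 10 neutrophil markers all had values above 0, with a median of 1.24 and 4 called higher, and they summed to 23.3 to 64.5 FPKM in EAE and 9.58 to 24.4 in PBS libraries. Of the 10 neuronal markers, 9 had values below 0 with a median of −0.13, and 2 were called lower. Astrocyte markers had a median of −0.21 with 1 called in each direction, and the medians were −0.13 for oligodendrocytes, 0.17 for border-associated macrophages, 0.44 for monocytes, 0.66 for T cells, 0.027 for endothelial cells and −0.067 for red blood cells, with none called. The part of these markers in the members' EAE against PBS values was not tested.

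How members varied between mice of the same group does not rest on the EAE against PBS contrast, and it was related to marker levels. For each library the level of a marker list was the mean log2(CPM + 1) of its genes, and members and markers were centred on their group mean, so that n = 16 mice. Over 10 relations, the pooled Pearson r of Ctss with the microglial level was 0.82 (Benjamini-Hochberg adjusted permutation p = 0.0024) and Spearman's rho was 0.86 (adjusted permutation p = 0.001). For Laptm5 they were 0.68 (adjusted permutation p = 0.0257) and 0.79 (0.0034). In the EAE group, however, microglial levels fell into separate clusters, while PBS 5, 7 and 8 lay within the range of the other PBS libraries. The same relations were therefore also computed with centring within group and set. Then r was 0.62 for Ctss (adjusted permutation p = 0.111; rho 0.52) and 0.31 for Laptm5 (adjusted permutation p = 0.717; rho 0.31), and neither passed. In the 8 PBS-treated mice alone r was 0.91 for Ctss (exact permutation p = 0.00861) and 0.64 for Laptm5 (exact permutation p = 0.0847). Spearman's rho in these mice was 0.90 for Ctss (exact permutation p = 0.00456) and 0.95 for Laptm5 (exact permutation p = 0.00114).

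Ctsc and Cd68 were related to the marker levels in the same way, and their difference from this pair was not tested. With centring within group and set, r of Ctsc was 0.56 with the microglial level (adjusted permutation p = 0.0278; rho 0.55, adjusted permutation p = 0.097) and 0.65 with the neuronal level (adjusted permutation p = 0.111; rho 0.64). Without the 2 mice farthest from the median microglial level, EAE 4 and PBS 4, the pooled r of Ctsc with the microglial level dropped from 0.53 to 0.24. It was 0.43 without EAE 4 alone and 0.88 within the 6 libraries most alike. Cd68, in contrast, had an r below 0 with the microglial level, −0.44 within group and set (adjusted permutation p = 0.176; rho −0.56, adjusted permutation p = 0.0966) and −0.34 pooled. Without the same 2 mice its pooled r was −0.098.

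Psap varied with the neuronal marker level in some of the tests. Astrocyte and oligodendrocyte marker levels were not compared with Psap. With centring within group and set, added after seeing the data, its r with the neuronal level was 0.77 (adjusted permutation p = 0.0244). Its rho was then 0.81 (adjusted permutation p = 0.0055). Pooled, r was 0.61 and did not pass (adjusted permutation p = 0.0587), while rho was 0.74 (adjusted permutation p = 0.00513). Without EAE 5 and PBS 2, the mice farthest from the median, the pooled r was 0.53. In the PBS group r was 0.91 (exact permutation p = 0.003), and in the EAE group it was 0.43 (exact permutation p = 0.277). With the microglial level, r of Psap was 0.21 within group and set (adjusted permutation p = 0.718). The difference between these correlations was not tested.

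The same centring was applied to all 44 members as a description, without tests, over 16 libraries that share their depth and composition between members. The highest r with the microglial level belonged to Grn (0.89), Ctsz (0.75) and Ctsd (0.71), which count as widely expressed, ahead of Ctss (0.62) and Hexa (0.61). The lowest were those of Cd68 (−0.44), Gaa (−0.42) and Ctsl (−0.40). With the neuronal level, Ctsb (0.81) and Psap (0.77) stood highest, followed by Ctsf (0.65), Ctsc (0.65) and Lamp1 (0.62). The median r with the microglial level was 0.43 for the 4 myeloid-enriched members and 0.29 for the 40 others, and with the neuronal level it was −0.094 and 0.20.

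**Figure D5:**
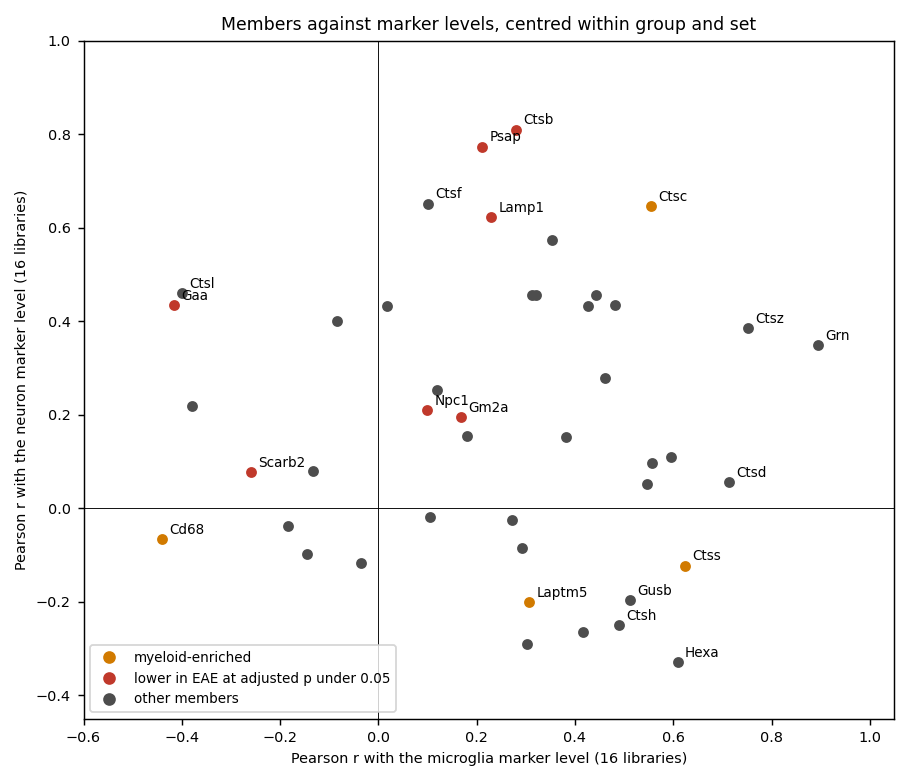
Pearson r of each member with the microglial marker level (x axis) and with the neuronal marker level (y axis) over 16 libraries, after centring within group and set; orange marks the 4 myeloid-enriched members and red the 7 members lower in EAE. Grn lies farthest right at 0.89, Ctsb and Psap lie highest at 0.81 and 0.77, and Cd68 lies farthest left at −0.44.

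With the same centring within group and set, and again without tests, the members formed no single block among themselves. The median r over all 946 pairs was 0.15, and 619 pairs were above 0. Psap was closest to Ctsb (r = 0.92), Lamp1 (0.83) and Laptm4a (0.80). Of the 4 myeloid-enriched members, Ctss and Laptm5 had an r of 0.73 under this centring. The other 5 of their 6 pairs were below 0, from −0.0064 for Ctsc and Ctss to −0.67 for Ctss and Cd68. This centring removes differences between the sets of libraries, and pairs were not computed without it. Ctsc was closest to Arsb (0.81) and Grn (0.77), and Cd68 to Ctsk (0.60).

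The other genes of the pathway came from lists of 94 genes, of which 93 were tested, 2 were higher and 10 were lower at an adjusted p under 0.05 from edgeR, beside 0.660% higher and 1.76% lower over all mRNAs tested. Of the 10 lower genes, 8 had a mean log2 CPM of at least 6, where 5.78% of all mRNAs were lower. Of all 17885 mRNAs tested, 8468 had a fitted value below 0, and the share among abundant mRNAs is not given here. Of 19 V-ATPase subunits and accessory proteins tested, 18 had a fitted value below 0, with a median log2FC of −0.14. The 5 that were called lower included the accessory proteins Atp6ap1 (−0.27, adjusted p = 0.0134 from edgeR) and Atp6ap2 (−0.35, 0.0216) and the catalytic subunit Atp6v1a (−0.21, 0.0213). Summed over the V-ATPase list, the level was 1025 to 1318 FPKM in EAE and 1228 to 1353 in PBS libraries. The one subunit that was higher, named here after its value was seen, was Tcirg1 (0.27, adjusted p = 0.0296 from edgeR), the a3 subunit known from osteoclasts and macrophages.

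Among 25 further hydrolases and their helpers, 17 had values below 0 and 2 were lower, Pld3, an exonuclease of lysosomes (−0.21, adjusted p = 0.0293 from edgeR), and Hgsnat, an acetyltransferase of heparan sulfate breakdown (−0.27, 0.0356). Of 12 genes for mannose 6-phosphate tagging and sorting, 1 was lower, Sort1, which encodes sortilin, a sorting receptor that binds prosaposin and progranulin (−0.24, adjusted p = 0.00717 from edgeR). Of 18 membrane transporters and channels, Laptm4b was lower (−0.40, adjusted p = 0.0106 from edgeR), and Slc11a1, a metal transporter of macrophage phagosomes, was higher (0.52, adjusted p = 0.0454 from edgeR). Of 13 MiT/TFE factors and nutrient sensors, Mtor, the kinase that restrains TFEB, was lower (−0.18, adjusted p = 0.0312 from edgeR). None of 4 cathepsin inhibitors or of 2 prosaposin receptors was called, and the smallest p-values there belonged to Cst3 (−0.19, adjusted p = 0.212 from edgeR) and Gpr37l1 (−0.20, 0.239).

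Of the 44 members, 17 overlap another RefSeq gene, and 8 of these overlap a protein-coding gene of the other strand (Hexa, Sgsh, Idua, Ctsa, Ctsb, Ctsz, Npc1 and Ppt1). Psap, Lamp1, Gaa, Gm2a, Ctsc and Cd68 overlap none.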

How the data were processed

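Libraries were prepared by the authors with a stranded total RNA kit after removal of ribosomal RNA, aligned to GRCm38 with HISAT2 2.1.0 and counted with HTSeq 0.11.2 per the labels; the strand setting is not given in the sources used here. The deposited tables hold raw counts per mRNA and library and FPKM values for the same mRNAs, normalized by the authors for length and depth. The labels name DESeq2 1.22.2, and the study's methods name edgeR for DEmRNAs.

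From the counts, mRNAs that reached 16 counts in all 16 libraries together were tested with edgeR 4.0.16 (R 4.3.3), using TMM factors, the quasi-likelihood test and group as the only term, with Benjamini-Hochberg adjustment over all of them. FPKM were used for levels, for the overlap of the groups, for libraries above or below a median and for the search for a library far from the rest. They entered no edgeR or DESeq2 fit. FPKM are scaled for length and depth and the log2FC by TMM factors, so they can differ in size or direction. Correlations used log2(CPM + 1), 100000 permutations within groups (exact within 1 group), and Python 3.11.15 with scipy 1.17.1. The script was tested on simulated counts of EAE against PBS. With 200 of 17779 mRNAs changed by 0.3 on the log2 scale, 56.5% of them were recovered and 6.61% of calls fell on unchanged mRNAs. The changed mRNAs were drawn only from those with high counts, so the recovery does not describe members with fewer counts, such as Tfeb. The simulated libraries held no set more alike than the rest.

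The members, the lists of pathway and marker genes and the 6 similar libraries were chosen with earlier results of these data known. All 44 members are named. Levels, log2FC, SE and adjusted p are given for Psap, the myeloid-enriched members, every member with an adjusted p under 0.05 and the member with the largest |log2FC| of each role; of each pathway list, at most 3 called genes by p. Alternatives were other scalings and filters, DESeq2 1.42.0, a replicate block, a term for the 6 similar libraries, fits within and without them, and leaving out each library; library totals in place of TMM and centring within the sets of libraries were added after seeing the data. Nothing states that the libraries of a group came from separate litters or cages, so p-values measure the spread between these mice.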

Additional observations from a re-analysis of the deposited data

Results flagged for a closer look

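Each group of 8 libraries was searched for 1 library far from the rest, by its gap to the nearest other library as a share of the group's range. Of 88 groups, 3 had such a library, and chance flags about 1 in 20 groups. EAE 4 was the highest EAE library for Psap, with 549 FPKM where the next held 497, and for Lamp1, with 140 FPKM where the next held 124. PBS 3 was the lowest PBS library for Ctsa, with 26.9 FPKM where the next held 29.7. Without EAE 4 the log2FC of Psap was −0.33 and that of Lamp1 was −0.26, and both had an adjusted p under 0.05 from edgeR, as they had with it.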

How the results depend on the processing

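Counts are of members past an adjusted p of 0.05, and the cause of each shift was not tested unless stated. Of the 44 members, 7 were lower in the text. This count was 4 with upper-quartile factors, 2 with library totals in place of TMM, 18 within the 6 similar libraries, 0 within the remaining 10, where fewer libraries enter, and 2 to 10 with 1 library left out: 2 without EAE 2 or PBS 2, 3 without EAE 3, EAE 6 or EAE 8, 4 without EAE 1, PBS 3 or PBS 5, and 10 without EAE 4. Over all mRNAs tested, 315 were lower in the text, 106 without EAE 2, 104 without PBS 2 and 815 without EAE 4. The count of higher members, 0 in the text, was 2 with DESeq2, 1 with a term for the 6 similar libraries, 1 within them (Idua) and 0 to 2 with 1 library left out, where Cd68 was called in 3 of 16 fits and Ctsc in 2. No setting called a member a DEmRNA. The median log2FC of the myeloid-enriched members was 0.026 within the 6 similar libraries and 0.43 within the remaining 10, and 0.26 to 0.32 with 1 library left out. Of the other pathway genes, 10 lower in the text, 6 were lower with upper-quartile factors, 18 with DESeq2, 17 with the term for the 6 libraries, 26 within them, 0 in the remaining 10, 4 with library totals and 3 to 20 with 1 library left out. Of 2 higher ones there were 1 without a filter on low counts, 6 within the 6 libraries, 0 in the remaining 10 and 0 to 2 with 1 library left out.

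The replicate numbers in the labels are shared between the groups, and the labels do not state whether they pair the mice. Over 12861 mRNAs the deviations of equally numbered libraries correlated at −0.27 to 0.62, and 2 of 8 EAE libraries matched their own number best. These values cannot decide whether the mice were paired, since paired mice need not be the most alike. The similar libraries also include equally numbered ones of both groups. With the replicate number as a block, 5 members were lower, 2 were higher (Cd68 and Ctsc), 0 were DEmRNAs, the medians were 0.28 and −0.088, and 12 pathway genes were lower and 2 higher.

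None of the members whose sign changed was called in the text. Lipa was −0.0020 with RLE factors and −0.0020 with DESeq2. Grn was 0.018 with upper-quartile factors and 0.0040 with edgeR's own filter. Within the 6 similar libraries the log2FC was −0.079 for Hexa, 0.027 for Arsa, 0.13 for Manba, −0.13 for Ctsh, −0.13 for Ctss, −0.075 for Cd63, 0.036 for Mcoln1, −0.10 for Laptm5 and −0.050 for Tfeb. Within the remaining 10 it was −0.0035 for Galc, 0.057 for Ctsd, −0.093 for Ctsk, 0.10 for Lgmn, −0.054 for Lipa and 0.046 for Grn. With library totals it was 0.0032 for Manba, 0.016 for Ctsd, 0.024 for Lgmn, 0.029 for Mcoln1 and 0.050 for Grn. With 1 library left out it ranged from −0.015 to 0.11 for Hexa, −0.026 to 0.064 for Ctsk, −0.063 to 0.0073 for Lgmn, −0.048 to 0.080 for Lipa, −0.031 to 0.069 for Cd63, −0.049 to 0.020 for Mcoln1 and −0.030 to 0.043 for Grn.

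Of the correlations, r with the microglial level within the remaining 10 libraries was 0.65 for Ctss and 0.31 for Laptm5, both weaker than pooled, and 0.31 for Laptm5 with centring within group and set. That centring gave 0.65 for Ctsc and −0.066 for Cd68 with the neuronal level. With 1 library left out, r with the neuronal level ranged from 0.52 to 0.68 for Psap, −0.12 to 0.14 for Cd68, 0.26 to 0.63 for Ctsc and −0.53 to 0.030 for Laptm5, and that of Ctsc with the microglial level from 0.43 to 0.73.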
